A study of Homo sapiens with 14 samples.

Results

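GATA3 is a zinc-finger transcription factor that binds DNA at GATA sequences, directs the luminal fate of breast epithelium and is often mutated in breast cancer. Chromatin immunoprecipitation followed by sequencing (ChIP-seq) recovers the DNA bound to a protein, and a peak caller marks where that DNA piles up. FLAG is a short peptide tag, and the study's design text describes the C-terminal tag as keeping GATA3 protein levels stable whichever mutation is present. The regions described here are those where a GATA3 peak was called in every library of tagged GATA3 and in no library of untagged GATA3.

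The samples came from MDA-MB-231, a triple-negative breast cancer cell line, harvested on day 3 without treatment, and the same antibody against GATA3 was used throughout. The 12 libraries analysed held 2 replicates each of A442M-FLAG (point mutant p.A442M with the tag), G444E-FLAG (point mutant p.G444E with the tag), WT-FLAG (wildtype with the tag), and the same 3 proteins without the tag, called A442M, G444E and WT. Empty-vector cells were not analysed here, and the regions were not compared with a list from cells without added GATA3. How the GATA3 copies were introduced, whether a line was a clone, and whether replicates were separate cultures is not given in the sources used here, and gene expression was not measured, so the identity of the cells was not checked. Peak lists held between 30026 and 51694 peaks in FLAG libraries and between 25248 and 39700 peaks in untagged libraries, and the read depth behind them is unknown.

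The FLAG-only regions were selected on the calls themselves. Peaks of all lists, 433307 in number, were joined into 78999 regions when sharing 1 bp or more, and a region was kept if all 6 FLAG libraries and none of the 6 untagged libraries had a peak in it. This left 230 regions, 0.291% of all. The opposite pattern, a call in all 6 untagged libraries and in no FLAG library, was found at 16 regions, or 0.0203%. With every list cut to its 25248 highest peaks, the length of the shortest list, the counts were 91 FLAG-only and 66 untagged-only regions. Because the calls of FLAG against untagged libraries chose the regions, that contrast was not tested, and the counts are a description. An absent call means that no peak passed the authors' threshold, not that GATA3 was absent.

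A RefSeq promoter window was overlapped by 5 of the 230 regions (2.17%), against 3.30% of regions called in all 6 FLAG and at least 1 untagged library and 4.32% of all regions. Such a window runs from 250 bp before to 50 bp after a gene's start. The 3 windows of protein-coding genes are shown as the FLAG-only sites at named genes whose sequence the promoter table holds; bases inside the FLAG-only region are in capitals and those outside it in lower case. CGN encodes cingulin, a tight junction protein, and its window lies on the plus strand at chr1:151511137-151511436. That window is set on a start at 151511387, inside the gene span used here for distances, which starts at 151510170. HCFC2 encodes a host cell factor protein, and its window lies on the plus strand at chr12:104064281-104064580. The FLAG-only region there also holds an end of the neighbouring gene GLT8D2. STAT3 encodes a signal-activated transcription factor, and its window lies on the minus strand at chr17:42388393-42388692. Sequences are from RefSeq, build GRCh38.p14, 5′ to 3′.
CGN: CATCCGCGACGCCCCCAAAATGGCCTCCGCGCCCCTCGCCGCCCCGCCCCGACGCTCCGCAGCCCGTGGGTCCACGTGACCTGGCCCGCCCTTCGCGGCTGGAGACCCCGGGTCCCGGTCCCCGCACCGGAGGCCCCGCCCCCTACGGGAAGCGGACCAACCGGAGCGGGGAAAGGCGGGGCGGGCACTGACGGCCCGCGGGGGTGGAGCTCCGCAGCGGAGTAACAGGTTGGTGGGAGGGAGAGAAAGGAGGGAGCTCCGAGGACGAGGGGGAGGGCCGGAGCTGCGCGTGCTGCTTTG
HCFC2: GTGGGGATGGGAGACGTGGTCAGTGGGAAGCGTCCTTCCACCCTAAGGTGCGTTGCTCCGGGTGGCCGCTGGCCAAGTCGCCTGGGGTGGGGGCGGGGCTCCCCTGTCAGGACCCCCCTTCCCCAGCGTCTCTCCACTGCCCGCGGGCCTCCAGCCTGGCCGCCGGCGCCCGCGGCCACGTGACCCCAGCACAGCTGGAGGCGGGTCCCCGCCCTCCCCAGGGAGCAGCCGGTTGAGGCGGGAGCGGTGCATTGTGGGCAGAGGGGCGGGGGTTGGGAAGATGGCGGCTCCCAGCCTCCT
STAT3: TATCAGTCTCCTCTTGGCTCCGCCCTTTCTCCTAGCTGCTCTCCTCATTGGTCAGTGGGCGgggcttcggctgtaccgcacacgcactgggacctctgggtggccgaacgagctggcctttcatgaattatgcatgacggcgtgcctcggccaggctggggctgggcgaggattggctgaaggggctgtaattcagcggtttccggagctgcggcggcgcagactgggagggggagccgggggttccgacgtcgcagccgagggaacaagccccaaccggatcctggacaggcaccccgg

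The regions at CGN and HCFC2 covered all 300 bases of these windows, while the region by STAT3 reached only the outermost 61 bases. The windows were GC-rich, with 75.3% G or C at CGN, 73.7% at HCFC2 and 65.3% at STAT3. The core GATA motif was searched on both strands as AGATAA or AGATAG or TGATAA or TGATAG. In full, it was held by 0 of the 5 windows touched by a FLAG-only region. The STAT3 window opens with TATCA, which is TGATA on the other strand. The next base, which decides the match, lies outside the window and was not read. The full motif was present in 307 of the 828 windows (37.1%) that touched a region called in all 6 FLAG and at least 1 untagged library, and in 8769 (25%) of all 35116 windows. The remaining 2 of the 5 windows belong to non-coding RNA genes, LOC105378780 and LOC124902719. A search for the E-box CACGTG, added after the sequences were seen, found this palindrome once at CGN and once at HCFC2, and in 7.26% of all windows. These are matches of letters in 5 windows. No genome sequence was used, so the other 225 regions, and the bases of these 5 regions outside the windows, were not searched.

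FLAG-only regions were mostly weak peaks of the G444E-FLAG and WT-FLAG lists. In A442M-FLAG their median lay above the middle of the list, though below that of regions called in all 12 libraries. Calls chose the regions and rest on the authors' threshold, so peak strength is not independent of the choice. Each peak carries a score deposited by the authors, never below 5.00 and with no scale stated in the lists, and it was turned into a percentile of its own list. The median FLAG-only peak stood at percentile 59.8 and 58.7 in the A442M-FLAG lists, at 30.3 and 24.9 in the G444E-FLAG lists and at 37.8 and 38.4 in the WT-FLAG lists (replicates 1 and 2). At the 10933 regions called in all 12 libraries, the corresponding medians were 81.6 and 78.2 for A442M-FLAG, 82.1 and 77.5 for G444E-FLAG, and 83.1 and 80.9 for WT-FLAG. The A442M-FLAG medians lay above the other FLAG libraries at FLAG-only regions and within their range at the regions of all 12 libraries. The lead was not particular to FLAG-only regions: with exactly 1 untagged call the medians were 59.2 and 54.3 in A442M-FLAG and 29.1 to 44.2 in the other FLAG libraries, and with exactly 5 FLAG and no untagged calls they were 51.0 and 45.6 in A442M-FLAG and 17.7 to 30.9 in the others. A442M-FLAG had the highest mean percentile of the 3 groups at 186 of the 230 regions (80.9%), G444E-FLAG at 12 and WT-FLAG at 32. A442M-FLAG had it at 72.2% of the 471 regions with exactly 1 untagged call, at 47.9% of the 19349 regions called in all 6 FLAG and at least 1 untagged library, and at 34.6% of those called in all 12. Both A442M-FLAG libraries were above all 4 other FLAG libraries at 129 FLAG-only regions (56.1%), and at 43.7%, 22.1% and 12.9% of these other classes in that order. These shares are descriptions and were not tested.

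**Figure D1:**
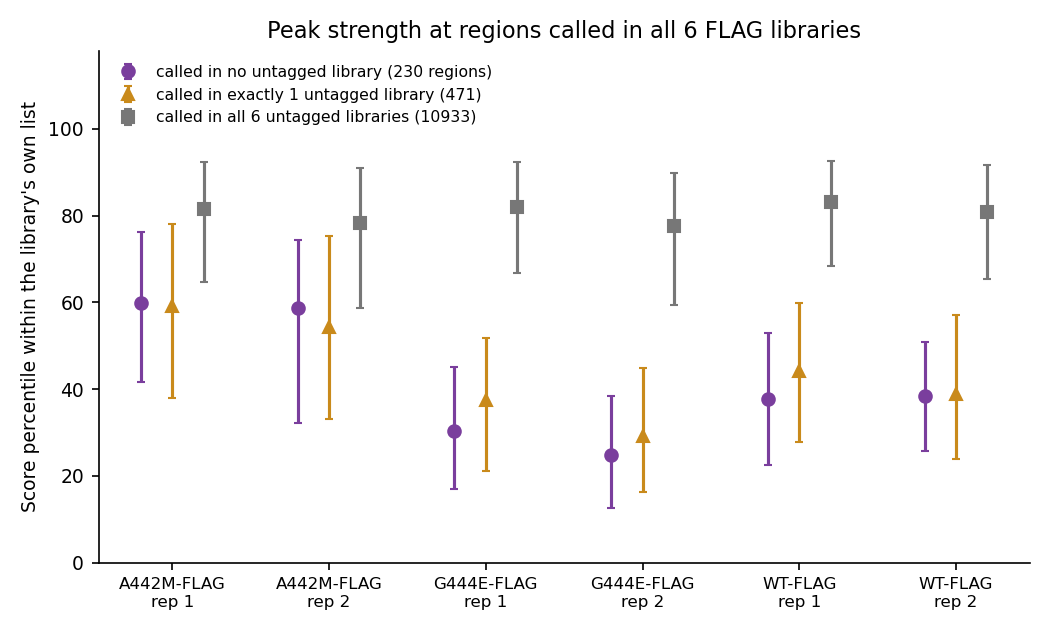
Score percentile within each FLAG library's own list (vertical axis) for regions called in all 6 FLAG libraries and in none (circles), exactly 1 (triangles) or all 6 (squares) of the untagged libraries. Symbols are medians over regions and bars run from the first to the third quartile; the circles are near 60 in both A442M-FLAG libraries and below 40 in the 4 others, while the squares are level.

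List lengths differ, so percentiles of different lists do not measure a change. Peaks among the 25248 highest of each list, the length of the shortest of all lists, give a view at one length. By that measure 151 and 149 FLAG-only regions (65.7% and 64.8%) were among the highest peaks of the A442M-FLAG replicates 1 and 2, 82 and 157 (35.7% and 68.3%) of the G444E-FLAG replicates and 102 and 141 (44.3% and 61.3%) of the WT-FLAG replicates. By this count the replicate 2 lists of G444E-FLAG and WT-FLAG were near A442M-FLAG and their replicate 1 lists were lower. A list of 30026 peaks, as in G444E-FLAG replicate 2, places most of its peaks among its 25248 highest, so short lists gain on this measure. Regions called in all 12 libraries had 86.1% to 98.5% of their peaks among the highest, with the A442M-FLAG libraries lowest at 86.1% and 87.8%.

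In score, the median FLAG-only peak was 26.7 and 26.9 in A442M-FLAG, 12.4 and 11 in G444E-FLAG and 15.9 and 15.9 in WT-FLAG. Scores reached 109 and 110 in A442M-FLAG, 42.7 and 50.8 in G444E-FLAG and 50.7 and 48.8 in WT-FLAG, whereas the highest peaks of the FLAG lists as a whole scored up to 1183 in A442M-FLAG. Of the 230 regions, 90 (39.1%) scored at least 10 in every FLAG library and 10 (4.35%) at least 20. Among the 19349 regions called in all 6 FLAG and at least 1 untagged library, 83.6% scored at least 10 in every FLAG library and 55.3% at least 20. The lowest of a region's 6 percentiles had a median of 15.4 over FLAG-only regions and of 53.8 over those 19349 regions.

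Regions just outside the rule also had low values of the lowest percentile. The 471 regions called in all 6 FLAG libraries and exactly 1 untagged library had a median lowest percentile of 18.7, against 15.4 for FLAG-only regions. The 628 called in 5 FLAG and no untagged library had 11. For these 628 the lowest was taken over the 5 libraries with a call, so it is not the same measure. Regions called in all 6 FLAG libraries became more frequent from 0 to 4 untagged calls, with 230, 471, 892, 1443 and 2924 regions, and numbered 2686 at 5 and 10933 at 6 calls. Regions called in all 6 untagged libraries numbered 16, 47, 149, 243, 533 and 1067 at 0 to 5 FLAG calls. Hence FLAG-only regions were 1.17% of the 19579 regions that all FLAG libraries called, and untagged-only regions were 0.123% of the 12988 that all untagged libraries called.

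**Figure D2:**
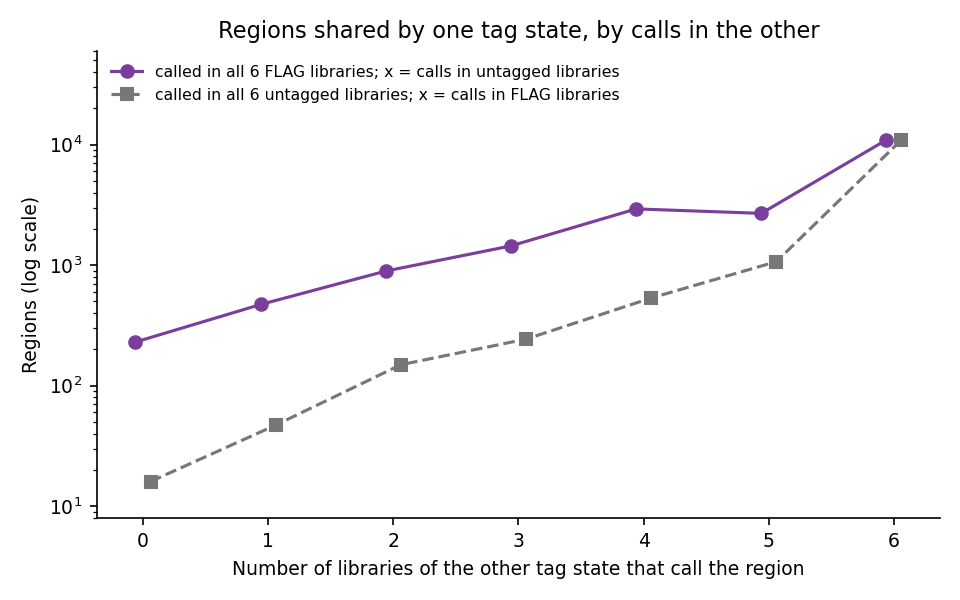
Number of regions (log scale) called in all 6 libraries of one tag state, against the number of libraries of the other state that call them. Circles give regions of all FLAG libraries and squares those of all untagged libraries; the circles start at 230 and the squares at 16, and both end at the 10933 regions called in all 12.

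The G444E libraries set the edge of the rule on both sides. Among the 628 regions missed by a single FLAG library, the missing call was that of G444E-FLAG replicate 2 at 295 and of G444E-FLAG replicate 1 at 169, against 24 and 22 for the A442M-FLAG replicates and 60 and 58 for the WT-FLAG replicates. Among the 471 regions with a single untagged call, that call came from the G444E libraries at 162 and 130, from the A442M libraries at 97 and 76 and from the WT libraries at 3 and 3 regions. Without G444E-FLAG replicate 2 the rule kept 525 regions, without G444E-FLAG replicate 1 it kept 399, and without untagged G444E replicate 1 or replicate 2 it kept 392 or 360. Among those 471 regions, untagged WT was thus seldom the group with the call. The untagged WT lists held 28890 and 25248 peaks, against 31200 and 26926 for G444E, and the part of list length was not tested. Set against untagged WT alone, 4776 regions of all 6 FLAG libraries had no call, and 4546 of these (95.2%) were called in another untagged library. Against untagged A442M alone the counts were 838 and 608, and against untagged G444E alone 716 and 486, so most absences from one untagged group were not shared by the others.

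**Figure D3:**
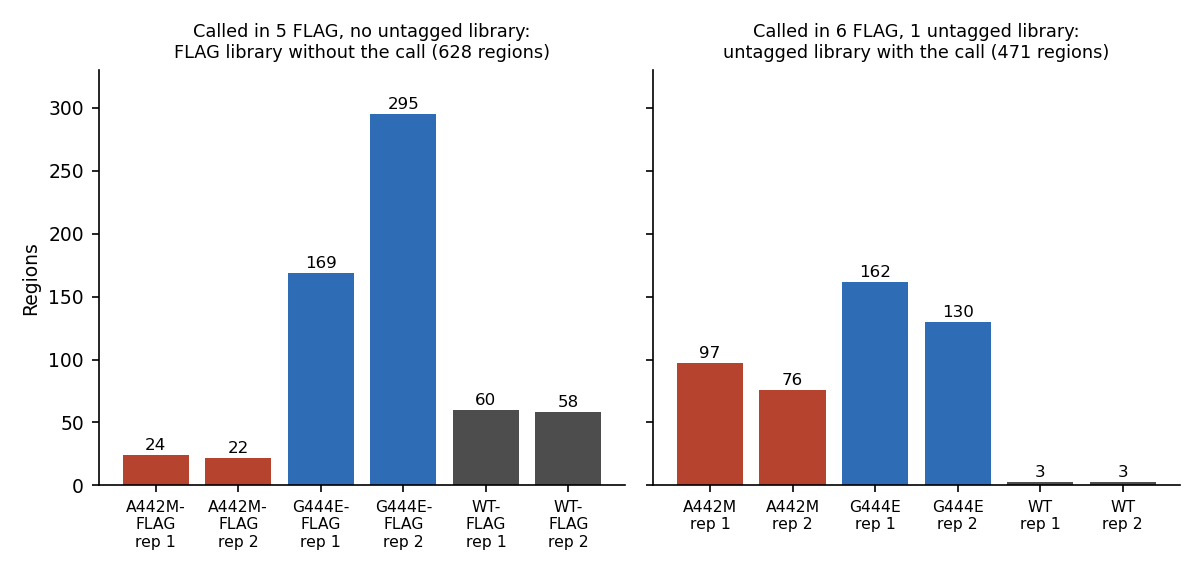
Regions that miss the rule by 1 library, as counts per library. Left, the FLAG library without the call among 628 regions called in the other 5; right, the untagged library with the only untagged call among 471 regions called in all 6 FLAG libraries. The G444E-FLAG bars (169 and 295) and the G444E bars (162 and 130) are the highest of their panels, and the WT bars stand at 3.

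Untagged A442M and WT also stood apart in peaks on unplaced contigs, with means of 66.0 and 97.0 a list, against 15.0 in untagged G444E and 18.5 to 21.0 in the FLAG groups. Its part in the FLAG-only calls was not tested. No FLAG-only region lay on such a contig.

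Regions were also chosen with the libraries of one replicate number, and their calls were read in the other. Region bounds came from the lists of both replicates, and whether replicates were separate cultures is unknown. These rates are a description and were not tested. In replicate 1 libraries, 2329 regions were called in all 3 FLAG and no untagged library. Their call rate in the replicate 2 libraries, which took no part in the choice, was 67.2% for A442M-FLAG, 36.6% for G444E-FLAG and 53.3% for WT-FLAG, against 20.5% for A442M, 22.4% for G444E and 4.81% for WT. All 3 FLAG libraries were above all 3 untagged ones. The same libraries called 53.6%, 37.5%, 46.2%, 44.6%, 33.3% and 31.1% of all regions in that order, so G444E-FLAG replicate 2 called the chosen regions at about its rate over all regions. Chosen in replicate 2 libraries, 1546 regions were called in 82.1%, 60.1% and 70.6% of cases by replicate 1 of A442M-FLAG, G444E-FLAG and WT-FLAG, and in 29.2%, 35.4% and 6.53% by replicate 1 of A442M, G444E and WT. The same libraries called 63.5%, 49.4%, 53.2%, 48.7%, 38.3% and 35.4% of all regions in that order, so untagged G444E replicate 1 was near its rate over all regions. The 230 FLAG-only regions are 9.88% of the first set and 14.9% of the second. Their rule places them in both sets and fixes their calls in the other replicate. The rates thus describe the larger sets and are no support for the 230.

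**Figure D4:**
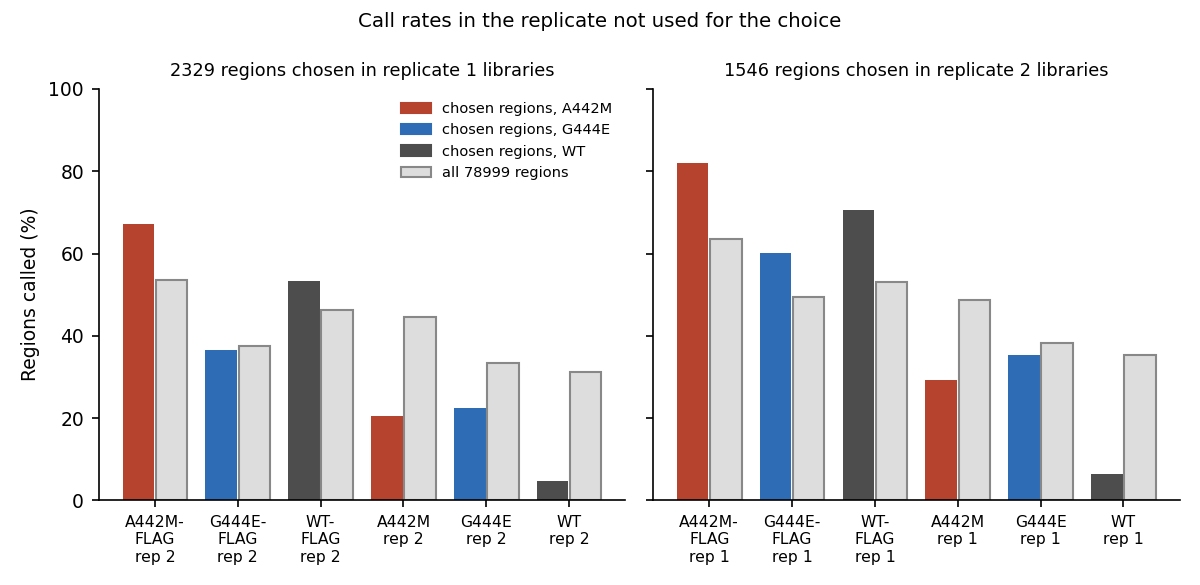
Share of regions called (percent) in each library of the replicate that was not used to choose them, for 2329 regions chosen in replicate 1 (left) and 1546 chosen in replicate 2 (right). Coloured bars are the chosen regions and grey bars all 78999 regions; the 3 FLAG bars are above the 3 untagged bars in both panels, and the WT bars are lowest at 4.81% and 6.53%.

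Ranked by the lowest percentile over the FLAG lists, the first region lay inside DIP2B, a gene of the disco-interacting protein family, on chromosome 12 from 50572347 to 50572972. Its score was 33.0 and 63.0 in A442M-FLAG, 26.5 and 50.8 in G444E-FLAG, and 42.6 and 48.8 in WT-FLAG. Its lowest percentile was 62.5, and no group was set apart from the others. Next came a region 296 bp from an end of YTHDF3, a reader of methylated adenosine in RNA (chromosome 8, 63213084 to 63213794), with scores of 42.8 and 66.1 in A442M-FLAG, 22.4 and 32.2 in G444E-FLAG, and 27.3 and 38.4 in WT-FLAG. Here both A442M-FLAG libraries were above the 4 others. FBXO27, an F-box protein of ubiquitin ligases that bind glycoproteins, had a region 7864 bp from its end (chromosome 19, 38997388 to 38997978) with scores of 74.6 and 37.6 in A442M-FLAG, 42.7 and 22.3 in G444E-FLAG, and 50.7 and 28.8 in WT-FLAG. Replicate 1 was the higher in each group.

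The fourth region lay inside MGA, a transcription factor that partners MAX (chromosome 15, 41727259 to 41727630). It scored 81.9 and 86.2 in A442M-FLAG, 22.9 and 21.7 in G444E-FLAG, and 30.6 and 28.6 in WT-FLAG. The spread between replicates was small here and A442M-FLAG stood well above both other groups. CHD1, a chromatin remodeller, was the nearest gene to the fifth region, 34599 bp away (chromosome 5, 98963606 to 98964183), which scored 50 and 47.1 in A442M-FLAG, 25.6 and 21.7 in G444E-FLAG, and 23.7 and 29.9 in WT-FLAG. A442M-FLAG was again highest in both replicates. The region inside OPTN, an autophagy receptor (chromosome 10, 13113287 to 13114003), had 60.4 and 68.6 in A442M-FLAG, 20.6 and 26.2 in G444E-FLAG, and 47.9 and 27.8 in WT-FLAG. Its A442M-FLAG scores were also the highest, with the WT-FLAG replicates far apart.

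HSD17B11, a lipid droplet enzyme, lay 12213 bp from the seventh region (chromosome 4, 87403401 to 87404077), whose scores were 54.6 and 53.7 in A442M-FLAG, 21.5 and 21.5 in G444E-FLAG, and 23.3 and 42.3 in WT-FLAG. SPRY4, an inhibitor of receptor tyrosine kinase signalling, lay 34502 bp from the eighth (chromosome 5, 142275438 to 142275928), with 69.9 and 69.3 in A442M-FLAG, 20.5 and 36.4 in G444E-FLAG, and 38.6 and 38.4 in WT-FLAG. At both sites the A442M-FLAG scores were the highest of the 6. The ninth region, named by C4orf36, lay inside AFF1, a gene of the super elongation complex (chromosome 4, 87015252 to 87015989). It scored 43.5 and 26.7 in A442M-FLAG, 23.5 and 24.1 in G444E-FLAG, and 25.4 and 21.1 in WT-FLAG. The tenth, inside the bromodomain gene BRWD3 (chromosome X, 80799474 to 80800108), had 39.7 and 23.1 in A442M-FLAG, 22.0 and 20.6 in G444E-FLAG, and 20.1 and 20.9 in WT-FLAG. At these last sites only A442M-FLAG replicate 1 was far above the rest.

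The regions ranked next, with lowest percentiles from 46.5 down to 42.2, lay near or inside other kinds of genes, and are given here by their median score over the FLAG libraries. GPR143 is a receptor of melanosomes (28.6), NAB1 a corepressor of EGR factors (27.3), CCNYL1 a cyclin Y relative (27.6), and ATPAF2 an assembly factor of ATP synthase (36.6), with the region itself inside DRC3. CAP2, an actin regulator, had a median score of 39.0. A region inside IQCJ-SCHIP1 had no gene end within 100 kb and a median score of 24.0. IGF2BP1, an RNA-binding protein (35.6), LOC124901418, beside a region inside the utrophin gene UTRN (23.3), and RASA1, which switches RAS off (21.3), followed.

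**Figure D5:**
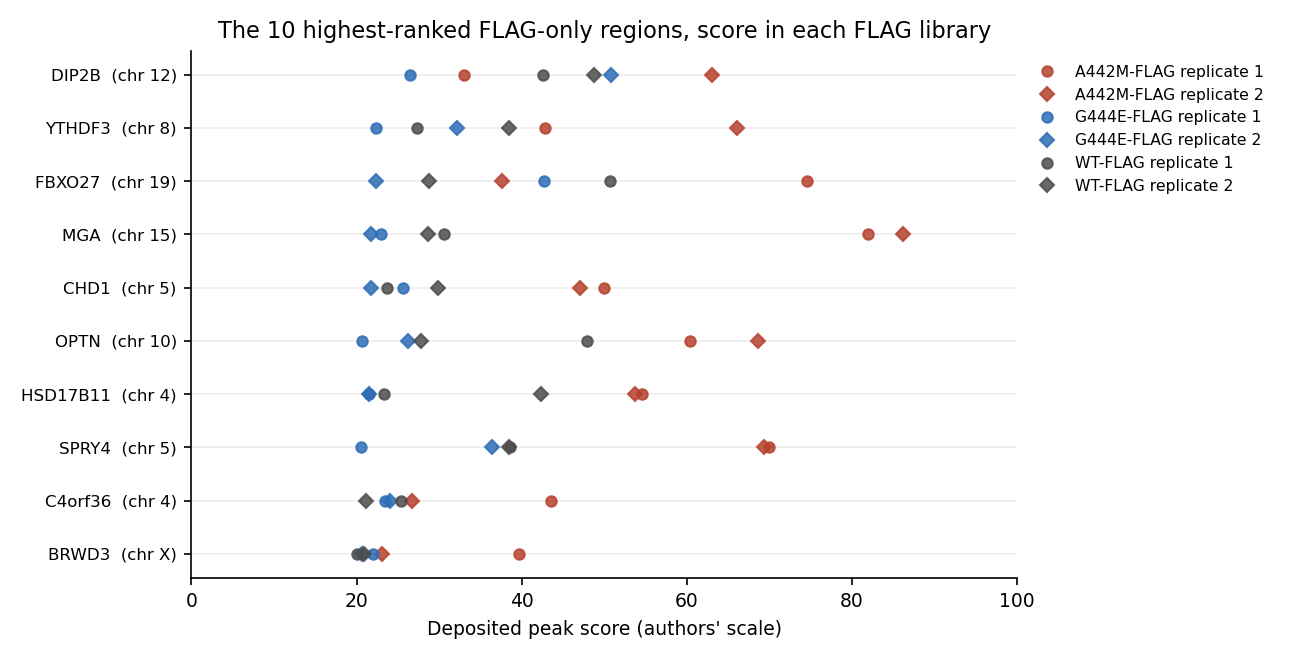
Deposited peak score (horizontal axis, authors' scale) in the 6 FLAG libraries at the 10 FLAG-only regions with the highest lowest percentile, ordered from top to bottom with the closest protein-coding gene as name. Red symbols are A442M-FLAG, blue G444E-FLAG and grey WT-FLAG; at MGA the red symbols are at 81.9 and 86.2 and the others below 31.

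FLAG-only regions lay mostly away from gene ends, as GATA3 regions did in general. An end of a protein-coding gene was within 1 kb of 9 of the 230 (3.91%, exact 95% binomial interval 1.80% to 7.30%), compared with 5.35% of regions called in all 6 FLAG and at least 1 untagged library and 7.36% of all regions that could be placed. The median distance to a gene end was 34754 bp, against 31050 bp in that shared set and 30143 bp over all regions. Gene spans held 140 regions (60.9%), against 54.0% and 53.1%. These shares are descriptions of regions, which are not replicates of a condition, and were not tested. Of the 52 regions (22.6%) with no gene end within 100 kb, 27 lay inside a long gene.

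The 9 regions by gene ends ranged from moderate to very weak. The region by GINS2, a subunit of the replication helicase, lay inside the neighbouring gene GSE1 (chromosome 16, 85675238 to 85675829) and scored 41.2 and 38.2 in A442M-FLAG, 13.7 and 16.7 in G444E-FLAG, and 17.7 and 22.0 in WT-FLAG. At STAT3 the scores were 18.8 and 12.2 in A442M-FLAG, 10.9 and 11.1 in G444E-FLAG, and 9.63 and 8.13 in WT-FLAG. The region at CASKIN2, a scaffold protein gene, also overlapped TSEN54 and had a median score of 14.8. The promoter regions shown above were near the threshold: CGN, with 6.69 and 5.71 in A442M-FLAG, 12.4 and 9.12 in G444E-FLAG, and 7.32 and 8.06 in WT-FLAG, and HCFC2, with 6.22 and 6.07 in A442M-FLAG, 7.98 and 5.40 in G444E-FLAG, and 9.71 and 7.32 in WT-FLAG. Unlike at most FLAG-only regions, A442M-FLAG was not the highest at either. CGN and HCFC2 were picked for their promoters after their values were seen, and the regions by SCAMP1 and KBTBD2 had lowest percentiles of 2.52 and 2.0.

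Most FLAG-only regions had no FLAG-only neighbour within 100 kb. Joined when less than 100 kb apart, the 230 regions formed 223 loci, of which 216 held a single region and 7 held 2 each. Both regions of the pair lay inside the gene at DIP2B, at REPS2, at RAI14 and at ASCC1, where ANAPC16 names a region. The other pairs lay outside the genes that name them. Gene ends were 20757 and 86579 bp away at NAB1, and 68791 and 79510 bp away at LOC124903211. In the last pair, a region lay 65431 bp from SLC7A11, the cystine transporter, and its partner had no gene end within 100 kb. At DIP2B the pair spanned 70128 bp. Thus 14 regions (6.09%) had a FLAG-only neighbour. No such share is given for other regions, so the count does not tell whether FLAG-only regions gather.

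Few genes had a FLAG-only region nearby, both in lists of breast and other genes and among all protein-coding genes. Of 20050 protein-coding genes, 319 (1.59%) had a FLAG-only region within 50 kb of the gene span, and among the 322 genes of 18 lists it was 8 (2.48%). TEAD1 and LATS1 were found among 22 Hippo pathway genes, RUNX1 among 16 GATA family and cofactor genes, FOSL2 among 14 AP-1 genes and LAMA3 among 20 integrin and matrix adhesion genes. UBB stood among 20 ubiquitin and proteasome genes, E2F1 among 20 cell cycle genes and MYOD1 among 16 muscle genes. None was found among 24 luminal, 18 basal, 20 mesenchymal, 20 TGF-beta pathway, 20 growth factor receptor, 20 breast metastasis or 20 interferon response genes, nor among 18 T cell, 17 erythroid, 16 neuronal or 16 housekeeping genes. Lists of this size hold less than 1 such gene on average at the background share, so counts of 0 and 1 are near it.

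By lowest percentile, the highest of these list regions lay near MYOD1 and inside RUNX1. MYOD1, a muscle transcription factor, lay 27403 bp from its region (chromosome 11, 17691680 to 17692168), whose scores ran from 15.1 to 58.1 with a median of 20.7 over the FLAG libraries. RUNX1 is a transcription factor that partners GATA proteins, and the region inside it (chromosome 21, 34952640 to 34953491) scored 10.9 to 56.4 with a median of 26.0. Inside TEAD1, a DNA-binding partner of YAP, the scores ran from 7.13 to 57.6 with a median of 18.6. The region 12032 bp from UBB, a ubiquitin gene, had a median of 21.6. That 23727 bp from E2F1, a cell cycle factor, had 17.1 and lay nearer to CBFA2T2. Lower medians were found 46051 bp from FOSL2 (median 12.2), 10191 bp from the Hippo kinase gene LATS1 (11.7) and inside the laminin gene LAMA3 (8.56). The region counted for FOSL2 lay nearer to PLB1, and that counted for LATS1 lay inside KATNA1. GATA3 itself had no FLAG-only region: the nearest on chromosome 10 was that inside OPTN, 5.04 Mb away.

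In most regions the FLAG peaks had a part of the region in common. In 225 of the 230 regions, the highest peaks of the 6 libraries shared an interval, with a median of 224 bp (111 to 571 bp). That interval made up a median of 37.3% of the region. The median width was 650 bp, against 658 bp with exactly 1 untagged call, 570 bp with exactly 5 FLAG and no untagged calls, and 829 bp for regions called in all 6 FLAG and at least 1 untagged library. The median distance to the nearest untagged peak was 7124 bp, and 20 regions (8.70%) had one within 1 kb and 132 (57.4%) within 10 kb. Regions with exactly 5 FLAG and no untagged calls were close to this, with a median of 6659 bp, 8.44% within 1 kb and 59.9% within 10 kb. The nearest region called in all 12 libraries was 32839 bp away at the median, close to the 32641 bp of regions with 1 to 5 untagged calls beside all 6 FLAG calls.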

How the data were processed

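Peak lists of 12 libraries were used. The genome build was hg38 and the tools MACS2 2.1.4 and FastQC, per the submitters' processing notes. Aligner, control, filters and read depth are not stated in the labels. A deposited list gives the peaks of a single library, each with a score by the authors, and the names of the lists speak of 5-fold peaks. Samples were grouped by their labelled titles.

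Peaks were merged at 1 bp of overlap in Python 3.11.15 with pandas 2.3.3, and merging and calling were tested on simulated lists. Percentiles are ranks within a list, from 0 to 100, with the best peak kept where a library had several in a region. Gene spans of 20050 protein-coding genes and promoter windows came from RefSeq GRCh38.p14, whose chromosomes share hg38 coordinates. Distances run from a region's edge to the nearer gene end, positions are 1-based, and exons and introns were not assigned. The nearest gene within 100 kb names a region and is not thereby a target.

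Named were the 20 regions with the highest lowest percentile, the 5 highest within 1 kb of a gene end, loci with the most regions, up to 4 genes of each list, and GATA3; exceptions are marked, and some regions the rule selects are not reported here. Regions and lists were chosen with earlier results of these data known. No test was run, since calls chose the regions; intervals cover counting error only. Alternatives changed score minimum, list length, merging, overlap and libraries. Motif shares over regions were planned and not run.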

Additional observations from a re-analysis of the deposited data

How the results depend on the processing

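The counts changed with list length, with the score minimum and with the libraries used. With all lists cut to the 25248 highest peaks, 91 regions were FLAG-only and 66 untagged-only, against 230 and 16 with the deposited lists, and 47 of the 91 overlapped one of the 230. A score of at least 10 in every list gave 227, of which 90 were among the 230. Requiring a score of at least 10 only where a region was called left 90 FLAG-only and 10 untagged-only regions. Merging over 100 bp gaps (231), calls over 50% of a region (340) and no untagged peak within 1 kb (210) kept the count within 1.5 times. Leaving out 1 library gave 233 to 525 FLAG-only regions, the highest without G444E-FLAG replicate 2, with 399 without G444E-FLAG replicate 1, 392 without G444E replicate 1 and 360 without G444E replicate 2. For untagged-only regions the range was 16 to 89, with 89 without G444E replicate 2, 66 without G444E replicate 1, 35 without G444E-FLAG replicate 1, 29 without WT-FLAG replicate 2 and 25 without WT-FLAG replicate 1. Replicate 1 libraries alone gave 2329 and 249, replicate 2 libraries alone 1546 and 366, and untagged G444E as the only untagged group 716 and 44. Without both G444E-FLAG libraries, an alternative chosen after seeing the data, the counts were 1064 and 43. At 5 kb in place of 1 kb, 12.6% of FLAG-only regions had a gene end, and at 10 kb in place of 50 kb, 169 genes had a FLAG-only region. The causes of these shifts were not tested beyond the fewer peaks or libraries each setting holds. No paired analysis was possible because the counts and shares come from no test. With no read counts, weak signal below the authors' threshold cannot be seen in either tag state.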

Other observations

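By chromosome, FLAG-only regions were not spread quite as other regions were. Chromosomes 3, 4 and 5 held 20, 20 and 23 of the 230, together 63 (27.4%), against 20.6% of regions called in all 6 FLAG and at least 1 untagged library and 20% of all regions. Chromosome 9 held 3 (1.30%), against 4.05% and 3.99%. These chromosomes were picked after their values were seen, the copy number of the cell line was not measured, and the difference was not tested.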
